A study of Rattus norvegicus with 40 samples.

Results

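rno-miR-132 and rno-miR-212 are microRNAs (miRNAs) made from neighbouring genes, and each can leave a 5p and a 3p mature product, named for the arm of the hairpin it comes from. Every row of the deposited count table named rno-miR-132 or rno-miR-212 was taken, with any arm suffix. This gave 4 of 752 miRNAs, namely rno-miR-132-3p, rno-miR-132-5p, rno-miR-212-3p and rno-miR-212-5p. Small RNA was sequenced from the tail-vein plasma of 20 adult male Sprague-Dawley rats, each sampled on day 2 (D2) and day 9 (D9) after surgery, which made 40 libraries. The TBI groups had a severe traumatic brain injury by lateral fluid percussion under anesthesia, and the sham group (n = 4) had the same surgery, craniotomy included, without the impact. TBI rats were divided by an outcome recorded months after the plasma was drawn. TBI+ rats (n = 7) had at least 1 unprovoked seizure in a month of video-EEG during the sixth month, and TBI− rats (n = 9) had none. No naïve rats without surgery were used here, so every sham value includes the effect of anesthesia and craniotomy. The 2 days of a rat are repeated samples of 1 animal.

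The genes for miR-212 and miR-132 lie next to each other on the same strand and are transcribed together. In neurons the transcription factor CREB drives this transcript in response to synaptic activity and growth factors such as BDNF, and both miRNAs are therefore known as activity-regulated. A mature miRNA directs silencing of mRNAs that pair with its seed, the bases from position 2 to position 8. miR-132 is known for roles in dendrite growth and synaptic plasticity. The miRNAs are not restricted to neurons, and plasma holds miRNAs released by many tissues. In bulk plasma, a change in the number of releasing cells and a change in the RNA released per cell cannot be told apart.

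The 4 mature sequences are shown because they decide which products share targets and how far reads of both genes can be told apart. They are RefSeq's rat sequences on build GRCr8, 5′ to 3′, with the seed in capitals.
rno-miR-132-3p: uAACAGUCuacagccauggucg
rno-miR-212-3p: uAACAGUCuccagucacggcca
rno-miR-132-5p: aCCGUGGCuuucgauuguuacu
rno-miR-212-5p: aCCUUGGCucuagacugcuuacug
Both 3p arms carried the same seed, and among 693 rat mature miRNAs in the RefSeq table these 2 were the only ones with it. The 3p arms were identical over the first 9 bases and at 17 of 22 positions, and they differed at A10C, C14U, U17C, U20C and G22A (the base of miR-132-3p, the position from the 5′ end, then the base of miR-212-3p). The 5p arms had different seeds, each found in 1 mature miRNA of that table, and were identical at 14 of the 22 positions compared. In GRCr8, miR-212-5p (chr10:60521771-60521794) and miR-212-3p (chr10:60521811-60521832) come before miR-132-5p (chr10:60522055-60522076) and miR-132-3p (chr10:60522091-60522112), all on the plus strand, with 222 bases between miR-212-3p and miR-132-5p. The annotation places Mir212 and Mir132 between the genes Hic1 and Ovca2. These are positions in GRCr8, not in the build to which the reads were aligned.

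The hairpin of Mir132 (chr10:60522033-60522133, plus strand, GRCr8) shows where both of its products lie, with the 5p and then the 3p arm in capitals.
Mir132 hairpin: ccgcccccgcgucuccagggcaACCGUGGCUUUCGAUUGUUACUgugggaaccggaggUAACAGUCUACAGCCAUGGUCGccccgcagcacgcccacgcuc

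Levels are given as CPM, the reads of a miRNA per 1000000 miRNA reads of its library, and are relative to all miRNAs in that plasma. On D2 the libraries held 404542 to 2562083 miRNA reads. On D9 the TBI libraries held 332161 to 2864893 reads and the sham libraries held 140636 to 358202. A count of 0 allows up to 3 reads, or 1.17 to 7.42 CPM on D2 and 8.38 to 21.3 CPM in the sham libraries of D9. These limits and all intervals below cover counting error only. The numbers in the library labels were divided by range into 3 runs, whose meaning is not given in the sources used here. Numbers are skipped inside each run as well, and run 3 starts directly after the last number of run 2. The labels alone therefore do not fix these borders, and every result by run rests on this division. All sham libraries of D2 are in run 1 and all sham libraries of D9 are in run 3, and TBI− libraries shared no run with the sham libraries of the same day. The sham library of rat 2 on D9 stood apart. Without that rat, edgeR called 0 of the miRNAs in D9 TBI vs sham in place of 19.

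The 3p arms supplied almost all of the reads. Over 40 libraries there were 2522 reads of miR-132-3p, 1270 of miR-212-3p, 28 of miR-132-5p and 19 of miR-212-5p, so that 5p arms made up 1.22% of the reads of the family (Wilson 95% interval 0.922% to 1.62%). By mean CPM, miR-212-3p ranked 185 of 565 detected miRNAs on D2 and 220 of 541 on D9, and miR-132-3p ranked above it on both days. miR-132-3p had reads in 40 of 40 libraries and miR-212-3p in 39 of 40. The exception was sham rat 1 on D9, with 0 reads of miR-212-3p in 140636, which allows up to 21.3 CPM.

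**Figure D1:**
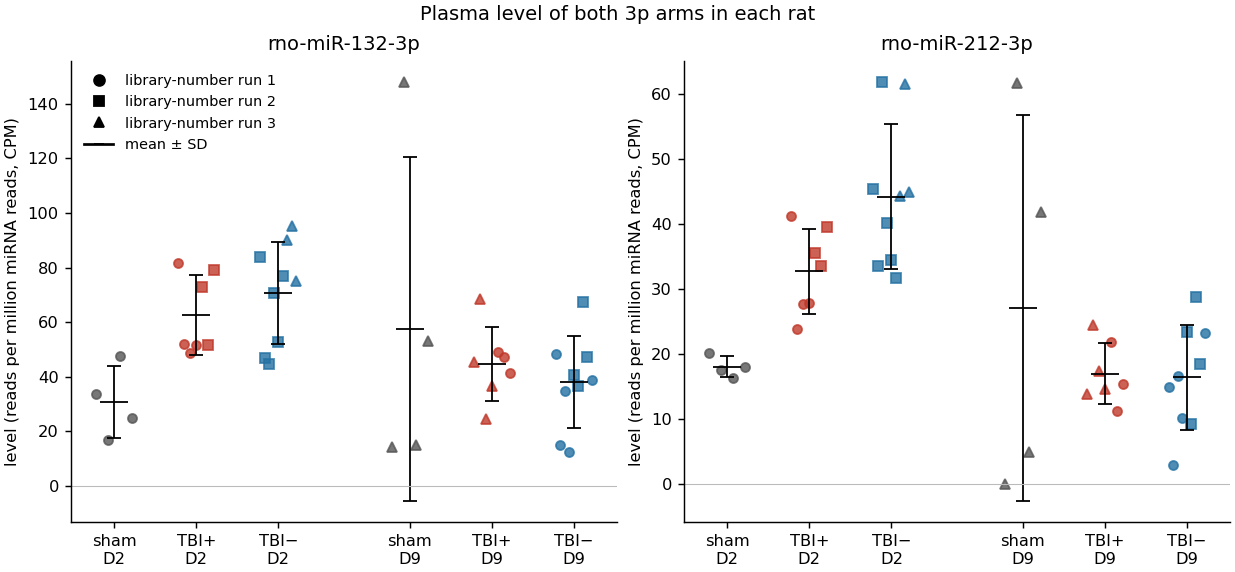
Level of rno-miR-132-3p (left) and rno-miR-212-3p (right) in CPM (vertical axis) for each rat, by group and day (horizontal axis). Marker shapes give the run of library numbers, and black bars give the mean ± SD. On D2 the 4 sham rats lie below all TBI rats for miR-212-3p, and for miR-132-3p sham rat 3 lies just above 2 TBI− rats. On D9 the sham rats spread widely, from 14.2 to 148 CPM for miR-132-3p.

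Both 3p arms were more abundant in plasma after TBI than after sham surgery on D2, by a little over 2-fold in CPM. miR-132-3p was at 33.7, 16.8, 47.7 and 24.8 CPM in sham rats 1 to 4. In TBI+ rats it ranged from 48.5 to 81.8 CPM with a median of 52.1, and in TBI− rats from 44.5 to 95.3 CPM with a median of 75.2. All 7 TBI+ rats and 7 of 9 TBI− rats were above the highest sham rat, and 2 TBI− rats, at 44.5 and 47.0 CPM, were just below it. The mean was 30.7 ± 13.2 CPM in sham (SD, n = 4) and 67.1 ± 17.02 CPM in TBI (SD, n = 16). The log2 fold change was 1.30 ± 0.29 (SE), with an adjusted p of 0.0039 (edgeR, Benjamini-Hochberg over 565 miRNAs).

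miR-212-3p, which shares the seed of miR-132-3p, was at 20.2, 17.6, 16.4 and 18.0 CPM in sham rats 1 to 4 on D2. It ranged from 23.9 to 41.2 CPM with a median of 33.5 in TBI+ rats, and from 31.7 to 61.8 CPM with a median of 44.3 in TBI− rats. The groups did not overlap, since the lowest of 16 TBI rats was above the highest sham rat. Of 565 miRNAs tested on D2, 7 (1.24%) had all TBI rats above all sham rats. The mean was 18.0 ± 1.59 CPM in sham (SD, n = 4) and 39.2 ± 10.8 CPM in TBI (SD, n = 16), with a log2 fold change of 1.24 ± 0.27 (SE) and an adjusted p of 0.0039 in edgeR. Both 3p arms and neither 5p arm passed the test, in a comparison where 35 of 565 miRNAs (6.19%) did, 18 of them higher and 17 lower after TBI. In the ranking by p they stood at 12 and 13. The authors selected both 3p arms for follow-up from these same libraries, so the direction is not independent evidence.

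**Figure D2:**
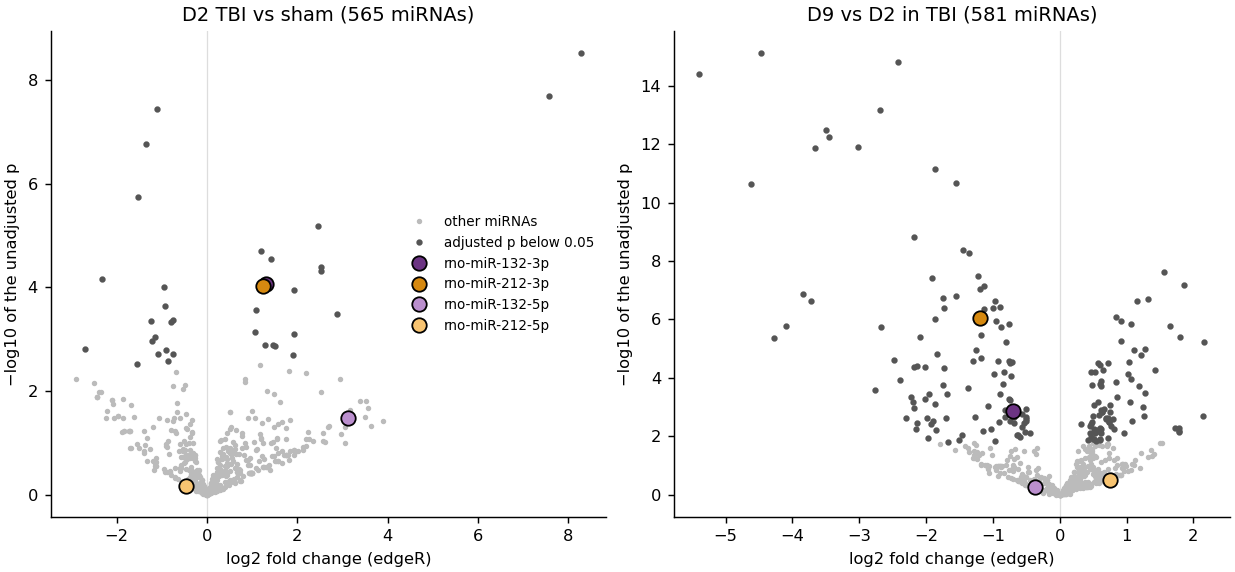
Log2 fold change (horizontal axis) against −log10 of the unadjusted edgeR p (vertical axis) for each miRNA in D2 TBI vs sham (left) and in D9 vs D2 in TBI rats (right). Large circles are the 4 members, dark points passed an adjusted p of 0.05 and grey points did not. Both 3p arms lie among the dark points in both panels, to the right of 0 on D2 and to the left of 0 for D9 vs D2, and neither 5p arm passed.

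On D2, run 1 held the 4 sham libraries and those of TBI+ rats 1 to 4, and no other comparison with sham could be made inside a run. There miR-132-3p was 58.5 ± 15.6 CPM in TBI+ and 30.7 ± 13.2 CPM in sham (SD, n = 4 each), and miR-212-3p was 30.1 ± 7.59 and 18.0 ± 1.59 CPM. The log2 fold changes were 0.99 for miR-132-3p (adjusted p = 0.12) and 0.78 for its partner miR-212-3p (adjusted p = 0.44), and neither passed. With the run as a term over all 20 libraries, chosen after seeing the data, they were 1.00 (adjusted p = 0.098) and 0.78 (adjusted p = 0.24). The direction was kept and the calls were lost in both fits. TBI libraries of run 3 (3 TBI− rats) had the highest median on D2, at 90.1 CPM for miR-132-3p and 44.9 CPM for miR-212-3p, against 70.8 and 35.5 CPM in run 2 (9 rats) and 51.8 and 27.7 CPM in run 1 (4 rats). TBI− rats and sham rats were linked on D2 by TBI+ rats alone, which lie in runs 1 and 2.

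Each outcome group was also set against the same 4 sham rats. In TBI+ rats miR-132-3p was higher than in sham by 1.15 ± 0.31 on the log2 scale (adjusted p = 0.026), and miR-212-3p had a log2 fold change of 0.95 ± 0.28 and missed the threshold (adjusted p = 0.053), where 18 of 565 miRNAs (3.19%) passed. The call of miR-132-3p was lost without sham rat 1, 2 or 4 or TBI+ rat 7 (adjusted p up to 0.105). miR-212-3p passed in DESeq2 (log2 fold change 1.05, adjusted p = 0.0035) and after a filter on low counts (1.00, adjusted p = 0.010). In TBI− rats both arms were higher than in sham, by 1.41 ± 0.30 for miR-132-3p (adjusted p = 0.0026) and 1.43 ± 0.28 for miR-212-3p (adjusted p = 0.0011), among 35 of 565 called (6.19%). TBI− rats shared no run with sham on D2. With the run as a term the calls in both outcome groups were lost, with 0.91 for miR-132-3p (adjusted p = 0.54) and 0.95 for miR-212-3p (adjusted p = 0.50) in TBI− rats, and 1.00 for miR-132-3p (adjusted p = 0.12) in TBI+ rats.

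The comparison of TBI+ with TBI− rats asks whether D2 levels differed by later epilepsy. For neither arm did the difference pass. miR-132-3p was 62.5 ± 14.7 CPM in TBI+ (n = 7) and 70.7 ± 18.7 CPM in TBI− (n = 9), with a log2 fold change of −0.26 ± 0.23 (adjusted p = 0.80). miR-212-3p was 32.7 ± 6.51 CPM in TBI+ and 44.2 ± 11.1 CPM in TBI−, with a log2 fold change of −0.48 ± 0.21, an unadjusted p of 0.030 and an adjusted p of 0.67. Across all miRNAs edgeR called 0 of 565 (0%), with 38 at an unadjusted p under 0.05, and DESeq2 also called 0. The outcome groups lay unequally over the runs, and with the run as a term the log2 fold changes were 0.093 for miR-132-3p and −0.17 for miR-212-3p.

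The summed level of the 4 members repeated the pattern of its 2 abundant members on D2. It was 49.4 ± 12.9 CPM in sham, with values from 35.2 to 64.0, and 107 ± 23.9 CPM in TBI, with values from 76.2 to 156.8. The difference was 58.1 CPM (exact permutation test, two-sided, 4845 arrangements, p = 0.000206, which is the lowest this test can reach). Between TBI+ (96.3 ± 21.5 CPM) and TBI− (116 ± 23.0 CPM) the exact permutation p was 0.101. In run 1 alone the difference from sham was 41.0 CPM (exact permutation p = 0.029, which is the lowest that 4 against 4 rats allow).

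**Figure D3:**
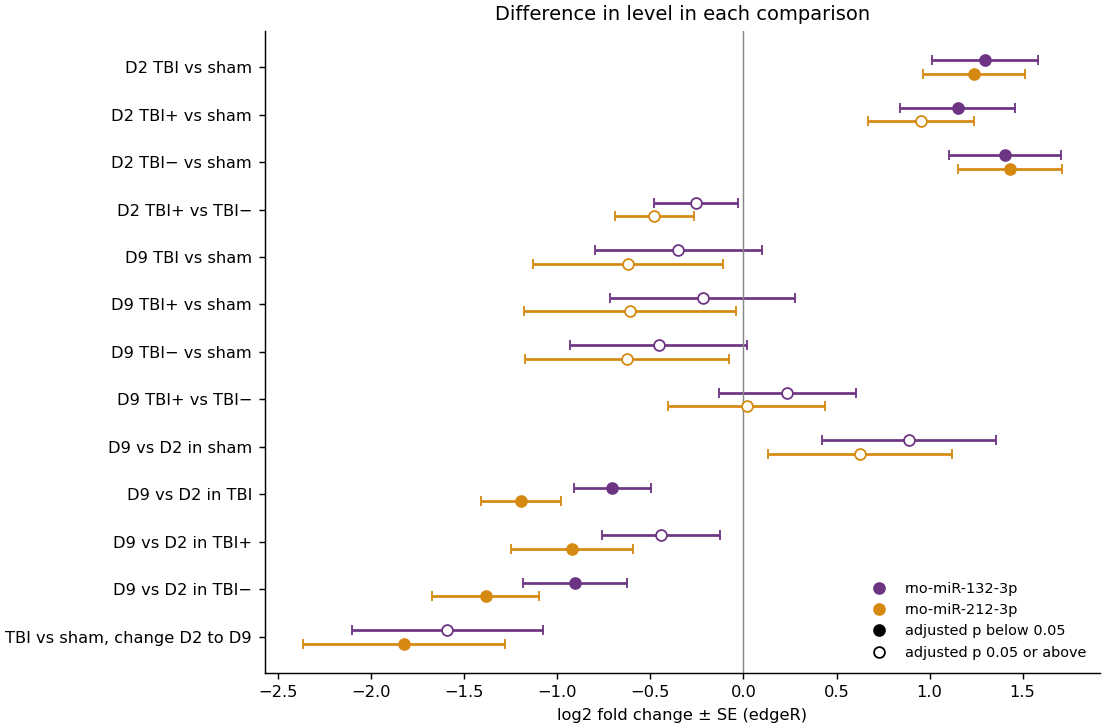
Log2 fold change ± SE (horizontal axis, edgeR) of both 3p arms (rno-miR-132-3p, rno-miR-212-3p) in each of 13 comparisons (vertical axis), where the first-named group is higher to the right of 0. Filled circles passed an adjusted p of 0.05. The 3 comparisons of D2 with sham lie at 0.95 to 1.43, the 3 of D9 with sham lie below 0 with wider errors, and the falls from D2 to D9 in TBI rats are larger for miR-212-3p.

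On D9 the sham rats themselves spread over a wide range, and no difference from sham passed the test. miR-132-3p was at 14.2, 148, 14.8 and 53.0 CPM in sham rats 1 to 4, from 2, 24, 3 and 19 reads. The Wilson 95% interval ran from 99.5 to 220 CPM for sham rat 2 and from 3.90 to 51.9 CPM for sham rat 1, so these rats differed by more than counting error. In TBI+ rats the level ranged from 24.5 to 68.6 CPM with a median of 45.3, and in TBI− rats from 12.2 to 67.5 CPM with a median of 38.7. All 16 TBI rats lay between the sham rats' extremes except TBI− rat 4, at 12.2 CPM, which was below the lowest sham rat.

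miR-212-3p was at 0, 61.7, 4.95 and 41.9 CPM in sham rats 1 to 4 on D9, from 0, 10, 1 and 15 reads. In TBI+ rats it ranged from 11.2 to 24.5 CPM with a median of 15.4, and in TBI− rats from 3.01 to 28.7 CPM with a median of 16.6. All TBI rats were below sham rats 2 and 4. The 0 reads of sham rat 1 allow up to 21.3 CPM. TBI+ rats 2 and 5 and TBI− rats 5, 7 and 9, at 21.9 to 28.7 CPM, were above this limit. Of these, only TBI− rat 7 had a Wilson interval that lay wholly above it (21.8 to 37.7 CPM). The other TBI rats cannot be placed against sham rat 1. The log2 fold change of TBI vs sham was −0.35 ± 0.45 for miR-132-3p (adjusted p = 0.81) and −0.62 ± 0.51 for miR-212-3p (adjusted p = 0.66), where 19 of 541 miRNAs (3.51%) were called. Without sham rat 2 the values were 0.48 (adjusted p = 0.79) and −0.14 (adjusted p = 0.90), so that the sign for miR-132-3p rested on that rat. The range of ±2 SE around the log2 fold change ran from −1.24 to 0.55 for miR-132-3p and from −1.64 to 0.40 for miR-212-3p.

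By outcome, the log2 fold changes from sham on D9 were −0.22 ± 0.50 for miR-132-3p and −0.61 ± 0.57 for miR-212-3p in TBI+ rats, where 10 of 541 miRNAs (1.85%) were called. They were −0.46 ± 0.48 and −0.63 ± 0.55 in TBI− rats, where 26 of 541 (4.81%) were called, and the adjusted p was 0.72 or more for both arms in both groups. Between TBI+ and TBI− rats the log2 fold change was 0.24 ± 0.37 for miR-132-3p (adjusted p = 0.96) and 0.016 ± 0.42 for miR-212-3p (adjusted p = 0.99). No miRNA was called there by edgeR (0 of 541, 0%, with 22 at an unadjusted p under 0.05) or by DESeq2 (0).

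Between D2 and D9 both 3p arms fell in TBI rats, and miR-212-3p fell further. miR-132-3p went from 67.1 ± 17.02 to 40.8 ± 15.4 CPM (SD, n = 16) and was lower on D9 in 15 of 16 rats. Its log2 fold change was −0.70 ± 0.21 (adjusted p = 0.0072). The edgeR fits between days given here do not pair the 2 samples of a rat, unless a block is named. miR-212-3p went from 39.2 ± 10.8 to 16.7 ± 6.61 CPM and was also lower on D9 in 15 of 16 rats, with a log2 fold change of −1.20 ± 0.21 (adjusted p = 1.6e-05). Of 581 miRNAs, 186 (32.0%) were called between these days in TBI rats, 105 of them lower on D9, so a call was common. Within each run of library numbers the TBI mean was lower on D9. The rats differed between the days, except that TBI− rats 5 and 6 were in run 2 on both. For miR-132-3p the means on D2 and D9 were 58.5 ± 15.6 and 35.8 ± 14.6 CPM in run 1 (n = 4 and 8), 64.4 ± 15.3 and 48.0 ± 13.7 CPM in run 2 (n = 9 and 4), and 86.8 ± 10.4 and 43.8 ± 18.7 CPM in run 3 (n = 3 and 4). For miR-212-3p they were 30.1 ± 7.59 and 14.6 ± 6.52 CPM, 39.5 ± 9.39 and 19.98 ± 8.26 CPM, and 50.2 ± 9.76 and 17.6 ± 4.85 CPM. With the run as a term both calls were kept, at −0.64 (adjusted p = 0.022) and −1.10 (adjusted p = 0.00014).

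**Figure D4:**
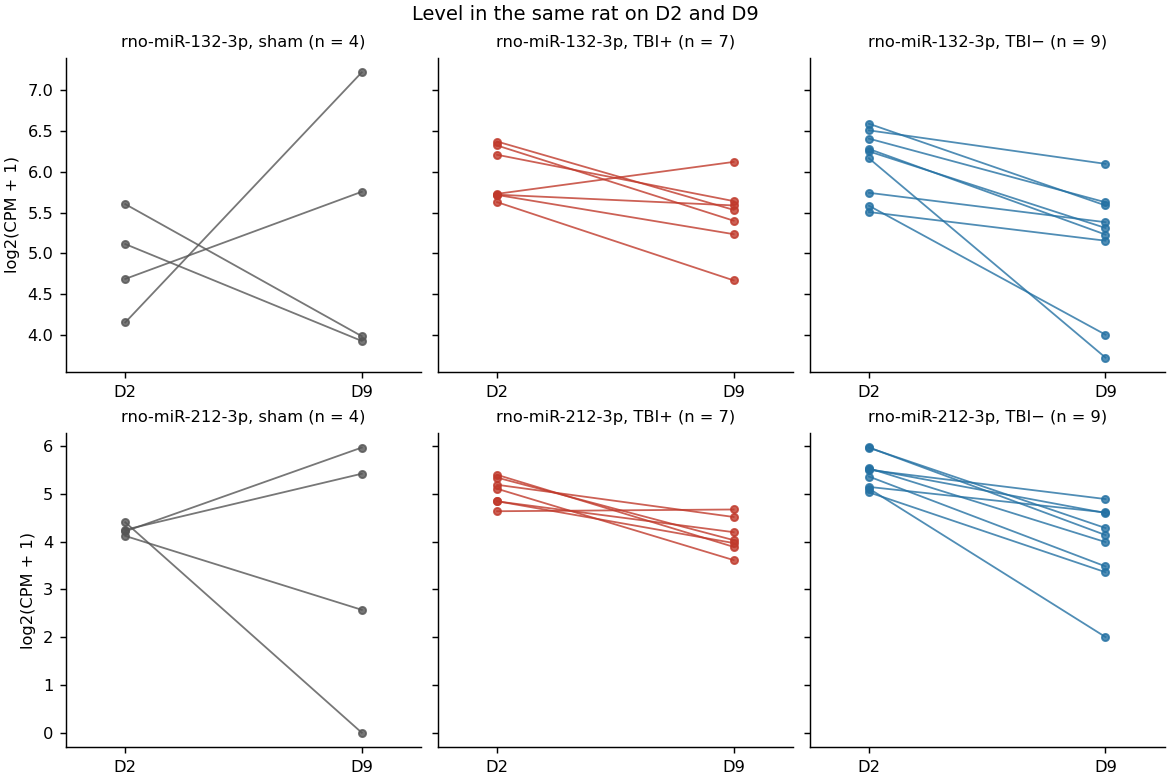
Level of rno-miR-132-3p (top) and rno-miR-212-3p (bottom) as log2(CPM + 1) on D2 and D9, with 1 line for each rat and 1 panel for each group. In TBI+ and TBI− rats 15 of 16 lines fall in each row, and in sham rats 2 lines fall and 2 rise.

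Both outcome groups were lower on D9 than on D2, and the fall did not pass for miR-132-3p in TBI+ rats. In TBI− rats 9 of 9 fell for each arm, with log2 fold changes of −0.91 ± 0.28 for miR-132-3p (adjusted p = 0.016) and −1.39 ± 0.29 for miR-212-3p (adjusted p = 0.00034), where 20.1% of 581 miRNAs were called. In TBI+ rats 6 of 7 fell for each arm, with −0.45 ± 0.32 for miR-132-3p (adjusted p = 0.34) and −0.92 ± 0.33 for miR-212-3p (adjusted p = 0.044), where 93 of 581 (16.0%) were called. The exception in TBI+ was rat 2 for both arms. The call of miR-212-3p in TBI+ rats was lost with each rat as its own block (−0.91, adjusted p = 0.071), with the run as a term (−0.99, adjusted p = 0.077), and without any 1 of 14 rats (sham rat 2, TBI+ rats 1 and 3 to 7, TBI− rats 3 to 9; adjusted p up to 0.146). With the run as a term the call of miR-132-3p in TBI− rats was lost as well (−0.75, adjusted p = 0.13). Whether the fall differed between TBI+ and TBI− was not tested.

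Markers of blood cells and of other tissues moved between the days too. All 6 measured red blood cell miRNAs (both arms of miR-451, miR-144 and miR-16) were higher on D9 than on D2 in TBI rats, none was at 0 in any group, and their summed level ranged from 10802 to 48308 CPM on D2 and from 17961 to 74405 CPM on D9. The hemolysis index, log2 of miR-451-5p over miR-23a-3p, had a median of −0.16 on D2 and 1.24 on D9 in TBI rats, and −0.51 and 1.14 in sham rats. Of the other lists in TBI rats, muscle miRNAs fell with both arms (3 of 5 measured of a list of 10, median log2 fold change −1.75). Their summed level ranged from 141 to 494 CPM on D2 and from 5.16 to 175 CPM on D9, with 5 and 6 of the 10 at 0. The one measured endothelial miRNA of a list of 2, miR-126a-3p (log2 fold change 0.84), miR-223-3p of the 2 platelet and myeloid miRNAs (0.51) and miR-150-5p of the 2 lymphocyte miRNAs (0.60) rose. The summed levels on D2 and D9 were 854 to 2241 and 1016 to 6434 CPM for endothelium, 627 to 2909 and 1021 to 4313 CPM for platelets and myeloid cells, and 5742 to 29506 and 8984 to 39621 CPM for lymphocytes. No miRNA of the endocrine pancreas (2 measured) or liver (1 measured) lists was called. The part of these lists in the fall of both arms was not tested. With the hemolysis index as a covariate the fall of miR-212-3p still passed (−1.13, adjusted p = 0.025), and that of miR-132-3p did not (−0.58, adjusted p = 0.32). The median index was higher on D9 in TBI and in sham rats, so this covariate overlaps with the day. The fit therefore cannot separate the index from the day for either arm. On D2 none of these 6 miRNAs was called between TBI and sham, and the summed level was 22494 to 31949 CPM in sham and 10802 to 48308 CPM in TBI. With the index as a covariate on D2 the log2 fold changes of TBI vs sham were 1.34 for miR-132-3p and 1.26 for miR-212-3p.

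In sham rats the difference between the days passed for neither arm. miR-132-3p went from 30.7 ± 13.2 to 57.5 ± 63.0 CPM and miR-212-3p from 18.0 ± 1.59 to 27.1 ± 29.7 CPM (SD, n = 4), with 2 rats higher and 2 lower for each arm. The log2 fold changes were 0.89 ± 0.47 (adjusted p = 0.31) and 0.63 ± 0.49 (adjusted p = 0.58), in a comparison with 39 of 581 miRNAs called (6.71%). Without sham rat 2 they were −0.19 and 0.11. In sham rats, day and run of library numbers coincide.

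The interaction of injury and day asks whether the difference from sham changed from D2 to D9. It was −1.59 ± 0.51 for miR-132-3p (adjusted p = 0.069) and −1.83 ± 0.54 for miR-212-3p (adjusted p = 0.044) on the log2 scale, and 22 of 581 miRNAs (3.79%) passed. Without sham rat 2 these values were −0.46 (adjusted p = 0.90) and −1.24 (adjusted p = 0.39). The call of miR-212-3p was lost without any 1 of 14 rats (sham rats 2 and 4, TBI+ rats 1, 3, 4, 6 and 7, TBI− rats 3 to 9), with each rat as its own block (−1.62, adjusted p = 0.20) and with the run as a term (−1.25, adjusted p = 0.42).

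The ratio of both 3p arms within a library does not depend on how the library was scaled. The ratio of miR-132-3p to miR-212-3p, from reads with 0.5 added to each, was 1.57 in sham and 1.71 in TBI on D2 (geometric means), and the log2 ratio differed by 0.12 (exact permutation test, two-sided, p = 0.63, n = 4 and 16). On D9 it was 2.42 in sham and 2.41 in TBI (exact permutation p = 0.99). The sign of both small differences depended on which sham rat was included, and on D9 also on the number of reads added. Between the days the ratio rose in TBI rats. In 13 of 16 rats it was higher on D9, and the mean log2 ratio rose by 0.50 ± 0.60 (SD), or 1.41-fold (exact sign-flip permutation test, two-sided, p = 0.0042). The rise was 0.44 in TBI+ rats (6 of 7 higher, exact permutation p = 0.047) and 0.54 in TBI− rats (7 of 9 higher, exact permutation p = 0.039). In sham rats it was 0.62 ± 0.96 with 2 of 4 higher (exact permutation p = 0.50, where 0.125 is the smallest that 4 rats allow).

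**Figure D5:**
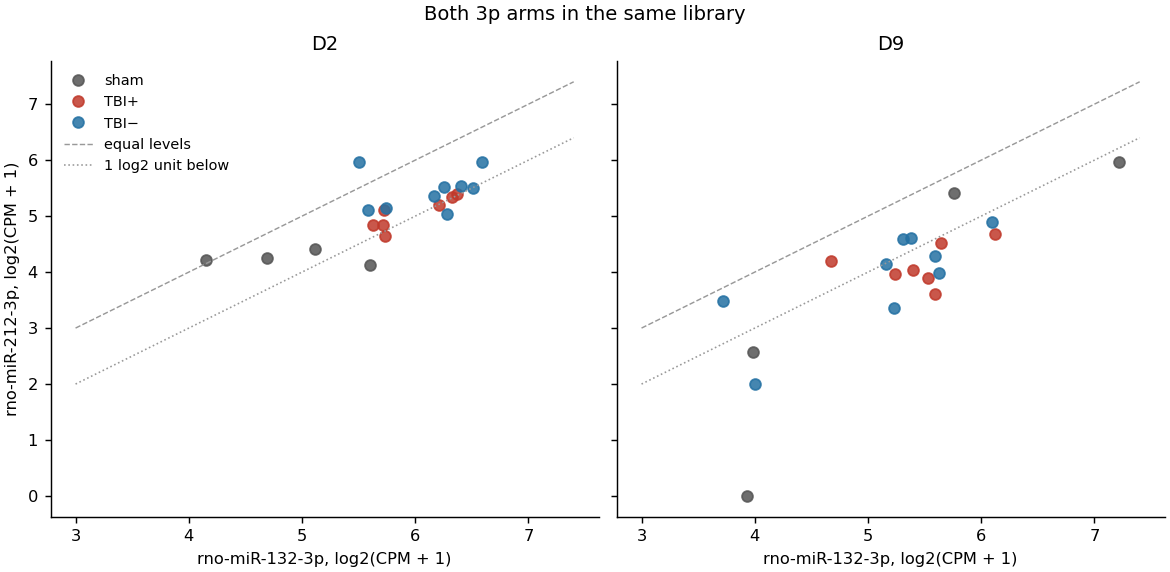
rno-miR-132-3p (horizontal axis) against rno-miR-212-3p (vertical axis) as log2(CPM + 1), with 1 point for each library, on D2 (left) and D9 (right). The dashed line marks equal levels and the dotted line marks miR-212-3p at 1 log2 unit below miR-132-3p. TBI points lie mostly between the lines on D2 and move towards the dotted line and below it on D9.

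Over the 16 TBI rats the levels of both arms on the log2(CPM + 1) scale had a Pearson r of 0.45 (permutation p = 0.078) and a Spearman rho of 0.48 (permutation p = 0.063) on D2. On D9 r was 0.70 (permutation p = 0.0044) and rho was 0.59 (permutation p = 0.018). Adjusted over these 4 tests, the p-values were 0.078 and 0.078 on D2 and 0.018 and 0.036 on D9. Without the 2 rats farthest from the median of miR-132-3p, r was 0.84 on D2 (permutation p = 1e-04) and 0.42 on D9 (permutation p = 0.14), so the relation on D9 rested on those 2 rats. Only 2 runs of library numbers held at least 6 TBI libraries of a day. In run 2 on D2 r was −0.17 (exact permutation p = 0.71, n = 9), and in run 1 on D9 r was 0.70 (exact permutation p = 0.056, n = 8). The relation did not pass within either run.

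The 5p arms were at the edge of detection. On D2 miR-132-5p had 0 reads in all 4 sham libraries, and 16 reads over 9 of 16 TBI libraries, with at most 5 in a library. On D9 it had 1 read in sham and 11 reads over 6 TBI libraries. miR-212-5p had 2 reads in sham and 7 in TBI on D2, and 0 and 10 on D9, with at most 3 in a library. Only 1 library on each day held more than 3 reads of miR-132-5p, and none held more than 3 of miR-212-5p, so no fold change is given here. Neither 5p arm passed in any of 13 edgeR comparisons, where the lowest adjusted p was 0.22 and 2 of 26 tests had an unadjusted p under 0.05. The share of 5p reads in the family was 1.12% in sham (interval 0.307% to 3.98%) and 0.986% in TBI (0.658% to 1.48%) on D2. It was 1.33% (0.236% to 7.17%) and 1.68% (1.10% to 2.55%) on D9, and all of these intervals overlap.

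Ordered by mean CPM, miR-132-3p ran from TBI− on D2 (70.7) through TBI+ on D2 (62.5), sham on D9 (57.5), TBI+ on D9 (44.6) and TBI− on D9 (37.9) to sham on D2 (30.7). Each step in this order was smaller than the larger SD of the 2 neighbouring groups. miR-212-3p ran from TBI− on D2 (44.2) through TBI+ on D2 (32.7), sham on D9 (27.1), sham on D2 (18.0) and TBI+ on D9 (16.98) to TBI− on D9 (16.4). There the step from TBI− to TBI+ on D2, 11.5 CPM, was larger than the larger SD of 11.1 CPM, and every other step was smaller. The place of sham on D9 rests on sham rat 2 for both arms.

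The miRNAs most like them were sought by Spearman correlation of CPM over 40 libraries, among the 274 miRNAs that averaged 10 reads or more per library. The arms were most like each other (rho = 0.82). After that came miR-323-3p (0.73), miR-433-3p (0.65), miR-136-3p (0.64), miR-369-3p (0.62) and miR-10a-3p (0.59) for miR-132-3p, and miR-433-3p (0.74), miR-107-3p (0.72), miR-103-3p (0.72), miR-136-3p (0.70) and miR-182 (0.69) for miR-212-3p. These values describe libraries that share depth, day and group, and carry no test. miR-323-3p, for example, was 13.9 ± 9.85 CPM in sham and 35.9 ± 15.3 CPM in TBI on D2, and 4.63 ± 9.25 and 4.34 ± 3.29 CPM on D9.

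Other miRNAs known to be enriched in neurons were taken as a list of 30 arms, among them those of miR-124, miR-128, miR-129 and miR-138, some of which other tissues express as well. On D2, 27 of them had reads, 5 were higher in TBI than in sham and none was lower, with a median log2 fold change of 0.65 against 0.09 for all 565 miRNAs, of which 35 (6.19%) were called. The 5 were both arms of miR-124 and 3 arms of miR-129. Of these, miR-129-1-3p and miR-129-2-3p had the same sham level (4.71 ± 4.19 CPM). Their TBI levels were nearly the same (28.8 ± 15.4 and 28.9 ± 16.0 CPM), so they may not be separate measurements. Both are also among the 9 falls below. miR-124-3p had 0 reads in all 4 sham rats and 31.1 ± 16.1 CPM in TBI, and miR-129-5p was 14.01 ± 14.1 CPM in sham and 79.4 ± 31.2 CPM in TBI. Compared with these, both 3p arms of the family were well covered in sham rats on D2, with 20 to 33 reads of miR-132-3p and 11 to 24 reads of miR-212-3p. On D9, 25 of the list had reads and none was called, with a median log2 fold change of 0.81 against 0.30 for all 541 miRNAs. Of the 30 arms, 12 were at 0 in sham and 5 in TBI on D9. Counts of 0 in the small sham libraries therefore enter this median, and it cannot show whether the list stayed higher in TBI. From D2 to D9 in TBI rats, 9 of 27 fell and none rose (median −0.26 against 0.056 for all 581 miRNAs), where 186 of all 581 (32.0%) were called, 105 lower and 81 higher. The 9 falls ran from −1.69 (miR-218a-1-3p) to −5.39 (miR-124-3p) on the log2 scale. miR-124-3p went to 0.795 ± 1.67 CPM and miR-129-5p to 3.90 ± 3.83 CPM. On D9 miR-132-3p and miR-212-3p were at 40.8 and 16.7 CPM in TBI, against means of 57.5 and 27.1 CPM in sham.

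Markers of other cells were read beside the difference on D2. Of the lists for red blood cells, platelets and myeloid cells, endothelium, lymphocytes, endocrine pancreas, liver and muscle, only miR-150-5p of the lymphocyte list was called between TBI and sham, and it was lower after TBI (15262 ± 5883 against 29909 ± 11847 CPM, log2 fold change −0.85 ± 0.26, adjusted p = 0.044). The summed lymphocyte level ranged from 19800 to 42698 CPM in sham and from 5742 to 29506 CPM in TBI, and both of its arms had reads in both groups. Its part in the difference of both 3p arms was not tested.

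The plasma of D2 was also read against miR-28-3p, a miRNA used here as an internal reference. The paper chose this reference with geNorm from these same libraries, for its low variation, so the scaling is not an independent check. It was 1105 ± 16.0 CPM in sham and 963 ± 96.7 CPM in TBI on D2. A reference with a lower mean in TBI raises the fold changes scaled to it, which were 1.30 for miR-132-3p and 1.24 for miR-212-3p in the main fit. Scaled to miR-28-3p, the log2 fold change of TBI vs sham was 1.38 for miR-132-3p (adjusted p = 0.0046) and 1.32 for miR-212-3p (adjusted p = 0.0028).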

How the data were processed

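Small RNA from rat plasma was sequenced, and the authors deposited a table of raw read counts per miRNA (752 miRNAs in 40 libraries). Per the labels and the study's methods, reads were checked in FastQC 11.8, trimmed in Trimmomatic 0.36, aligned with Bowtie2 in local mode to Rno6 and counted by featureCounts on miRBase annotation. How reads matching both genes equally well were counted is not given in the sources used here. Columns were matched to samples by title, no 2 libraries were identical, and 0 columns were left unused.

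CPM was computed from each library's total. Groups were compared with edgeR 4.0.16 (R 4.3.3, TMM scaling, quasi-likelihood F test, two-sided), over all miRNAs with at least 1 read in the libraries of the comparison (565 on D2, 541 on D9, 581 for both days), with Benjamini-Hochberg adjustment and a threshold of 0.05. Comparisons with sham share its 4 libraries. TBI vs sham and outcome groups were fitted per day, and days in 1 fit. Single values were tested by exact permutation over rats (scipy 1.17.1), or by 100000 permutations for correlations over 16 rats. The fits were tested on simulated data. Alternatives were DESeq2 1.42.0, other scalings, filterByExpr, thinning every library to the smallest total, blocks, covariates and leaving out each rat. The same title number on both days is the same rat. Over 20 rats the correlation of D2 and D9 deviations from the group means was −0.296 to 0.395 (median −0.057).

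The named miRNAs are the 4 members, miR-28-3p, the listed miRNAs that passed, and the 5 most alike by Spearman correlation for each 3p arm. The members and lists were chosen with earlier results of these data known. Sequences are RefSeq's, and all 4 members matched by name. Replicates are separate rats.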

Additional observations from a re-analysis of the deposited data

Results flagged for a closer look

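In 36 sets of values (each member's CPM, the log2 ratio of both 3p arms and the summed level, by group and day), 4 had a library far from the rest of its group by Dixon's criterion, where chance gives about 1 in 20. Of these, 3 concern 5p arms with few reads. miR-132-5p was 4.95 CPM in sham rat 3 on D9, from 1 read. miR-212-5p was 1.79 CPM in TBI+ rat 1 on D2 and 6.02 CPM in TBI− rat 2 on D9, with at most 3 reads each. The remaining one is the log2 ratio of miR-132-3p to miR-212-3p in TBI− rat 3 on D2, which was −0.46, the only TBI library of that day with more reads of miR-212-3p than of miR-132-3p. Sham rat 2 on D9, the highest for both 3p arms, was not marked by this criterion, which needs a wide gap in a group of 4.

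The change of the TBI vs sham difference from D2 to D9 was −1.83 for miR-212-3p on the log2 scale, and differed from 0 by the interaction term (edgeR, adjusted p = 0.044, with adjusted p from 0.00089 to 0.64 over the alternatives of that result).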

How the results depend on the processing

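Over the 13 comparisons, 467 of 520 fits that left out 1 rat kept the direction of miR-132-3p or miR-212-3p and its side of the threshold. That total includes fits without a rat of neither compared group, and differences that never passed, so it does not measure how firm the calls were. The calls of miR-212-3p for D9 vs D2 in TBI+ and for the change of the difference were each kept in 6 of 20. On D2 the calls of both arms against sham in all TBI rats and in TBI− rats were kept without any 1 rat. The few reads of the sham libraries limit D9, and the run of library numbers limits every comparison with sham. Where a call changed, the cause was not tested.

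With only the sham rats and TBI+ rats 1 to 4, TBI vs sham and TBI+ vs sham on D2 fell to 0.99 for miR-132-3p and 0.78 for miR-212-3p, D9 vs D2 in TBI to −0.34 and −0.69, D9 vs D2 in TBI+ to −0.69 for miR-212-3p, and the change of the difference to −1.41 for miR-212-3p, all past no threshold, with fewer rats. There the counts of called miRNAs were 10 for D9 TBI vs sham, 43 for D9 vs D2 in TBI and in TBI+, and 1 for the change. With the run as a term, added after seeing the data, miR-132-3p lost its call in D2 TBI vs sham (1.00), TBI+ vs sham (1.00), TBI− vs sham (0.91) and D9 vs D2 in TBI− (−0.75), and turned to 0.093 in D2 TBI+ vs TBI−. miR-212-3p lost its call in D2 TBI vs sham (0.78), TBI− vs sham (0.95), D9 vs D2 in TBI+ (−0.99) and the change (−1.25). Counts with the run as a term were, on D2, 19 for TBI and 2 for TBI− rats against sham and 1 between outcome groups, on D9, 7 for TBI and 3 for TBI− rats against sham, and 20, 56 and 53 for D9 vs D2 in sham, TBI+ and TBI−, and 2 for the change.

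After thinning, miR-212-3p lost its call in D2 TBI vs sham (0.96), D2 TBI− vs sham (1.16), D9 vs D2 in TBI+ (−0.57) and the change (−2.12), and miR-132-3p in D2 TBI+ vs sham (0.92), D9 vs D2 in TBI (−0.61) and in TBI− (−0.80). Counts were 21 for D2 TBI− vs sham, 24, 116, 57 and 67 for D9 vs D2 in sham, TBI, TBI+ and TBI−, and 8 for the change. With the hemolysis index as a covariate, D9 vs D2 lost the calls of miR-132-3p in TBI (−0.58) and TBI− (−0.76) and of miR-212-3p in TBI+ (−0.83), with counts of 46, 29 and 31 in TBI, TBI+ and TBI−, and miR-212-3p passed in D2 TBI+ vs sham (0.97). That arm also passed there in DESeq2 (1.05), under RLE scaling (1.03), miR-28-3p scaling (1.10) and filterByExpr (1.00). The change for miR-132-3p passed under the same 4 settings (−1.90, −1.89, −2.10 and −1.67). miR-28-3p scaling ended the calls of miR-212-3p in TBI+ (−0.85) and miR-132-3p in TBI− (−0.84) for D9 vs D2, and gave counts of 23 for D2 and 29 for D9 TBI vs sham. The count for TBI+ vs sham was 34 in DESeq2 on D2, and on D9 it was 16 under RLE scaling and 3 with filterByExpr. In D9 TBI+ vs TBI− the value of miR-212-3p, near 0, turned to −0.011 in DESeq2, −0.027 on library totals and −0.033 with filterByExpr.

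Within a day, animal numbers are only names. Same-numbered rats' deviations correlated at −0.452 to 0.247, and with the number as a block miR-212-3p in D2 TBI vs sham (1.12) and miR-132-3p in D2 TBI+ vs sham (1.02) did not pass, with counts of 3 for D2 TBI+ vs TBI− and 7, 4 and 6 for D9 TBI, TBI+ and TBI− vs sham. Between days, with the rat as a block, the paired values of miR-212-3p in TBI+ (−0.91) and of the change (−1.62) did not pass, and it ended no other call of either arm.

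Leaving out 1 rat gave ranges of called miRNAs of 21 to 37, 11 to 22, 23 to 36 and 0 to 2 for TBI, TBI+ and TBI− rats against sham and between outcome groups on D2, 0 to 26, 0 to 17 and 0 to 32 for D9 TBI, TBI+ and TBI− vs sham, 2 to 46 and 52 to 98 for D9 vs D2 in sham and TBI+, and 8 to 28 for the change. The counts of 0 and 2 with sham on D9 are without sham rat 2, the lowest counts with sham on D2 are without sham rat 1, the highest between outcome groups on D2 and for D9 TBI+ are without TBI− rat 2, and the lowest for D9 vs D2 in TBI+ is without TBI+ rat 3. The count for the change left its 1.5-fold range without any 1 of 9 rats. For miR-132-3p the ranges were 0.96 to 1.47 (D2 TBI+ vs sham), −0.68 to 0.48, −0.55 to 0.61 and −0.79 to 0.37 (D9 TBI, TBI+ and TBI− vs sham), −0.19 to 1.47 (D9 vs D2 in sham) and −2.18 to −0.46 (the change), and the sign turned without sham rat 2 alone. For miR-212-3p they were 0.91 to 1.06 (D2 TBI+ vs sham), −0.095 to 0.12 (D9 TBI+ vs TBI−), −1.10 to −0.82 (D9 vs D2 in TBI+) and −2.17 to −1.24 (the change). The difference between arms in the TBI vs sham change was −0.11 to 0.41 on D2 and −0.32 to 0.35 on D9, and 0.21 on D9 with 1 read added in place of 0.5. The summed level on D9 differed by −50.7 to 14.5 CPM. The correlation of both arms was −0.17 in run 2 on D2 and 0.70 in run 1 on D9. Of 754 tests of a 5p arm over all settings, 1 passed, miR-212-5p for D9 vs D2 in TBI after thinning (1.81, adjusted p = 0.040). That arm had at most 3 reads in any library before thinning, so this value is not read as a change.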
